A study of Caenorhabditis elegans with 4 samples.

Results

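The insulin receptor to DAF-16 pathway was examined in whole *Caenorhabditis elegans* larvae through 8 genes, daf-2, age-1, pdk-1, akt-1, akt-2, sgk-1, daf-18 and daf-16. They were picked by symbol, with earlier results of these data known, and all 8 were found among the 46748 genes counted. Poly(A) RNA of larvae at the L3 stage was sequenced in 2 libraries of met-2 set-25 double mutants (rWQS029 and rWQS045) and 2 libraries of wild type, the N2 strain (rWQS019 and rWQS042). NGM plates kept at 20°C were used for both genotypes. MET-2 and SET-25 are histone methyltransferases of H3K9, a mark of silent chromatin, and the comparison asks which transcripts differ when both are mutated. The study's strain list gives the mutant alleles as met-2(n4256) and set-25(n5021). The mutations are carried by every cell of the animal and RNA came from whole animals, so no tissue was measured apart. Whether the libraries of one genotype came from separate cultures is not stated, and a p-value here reflects no more than how far these libraries lie apart, possibly for technical reasons.

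In this pathway, insulin-like peptides bind the receptor DAF-2, which activates the phosphoinositide 3-kinase AGE-1. The lipid that AGE-1 makes recruits the kinases PDK-1, AKT-1 and AKT-2, and the phosphatase DAF-18 removes it. Active AKT kinases phosphorylate the FOXO transcription factor DAF-16 and hold it in the cytoplasm, and SGK-1 is a related kinase downstream of PDK-1. The pathway is known for its control of dauer arrest, life span, fat and stress resistance. Much of this control acts on protein phosphorylation and location, which transcript counts do not show.

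The libraries held 36581352 and 48636767 counts in met-2 set-25 and 22849521 and 56879896 counts in wild type. Values are CPM (counts per 1000000, scaled by TMM factors). The targeted gene met-2 was at 31.8 and 35.3 CPM in met-2 set-25, against 62.0 and 55.8 CPM in wild type. set-25 was at 11.5 and 11.6 CPM in met-2 set-25, against 11.4 and 17.5 CPM in wild type. Since counts cover the gene as a whole and both mutant libraries hold reads of both genes, the labels are checked by them only weakly. edgeR's quasi-likelihood test called 0 of 15978 tested genes (0%) at a Benjamini-Hochberg adjusted p under 0.05 and gave 1608 genes (10.1%) an unadjusted p under 0.05. limma voom also called 0, whereas DESeq2 called 548 of 16562 genes (3.31%). Below, "rose" and "fell" are used only of genes past the threshold of a named tool.

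None of the 8 pathway genes passed the threshold of edgeR, DESeq2 or limma voom, and 0 of 8 had an unadjusted edgeR p under 0.05, against 10.1% of all tested genes (6.2% higher and 3.87% lower in the mutant). Of all genes tested in DESeq2, 2.49% rose and 0.821% fell. The 8 log2 fold changes in edgeR ran from -0.95 for akt-2 to 0.28 for daf-18, with a median of -0.09, against a median of 0.02 over all tested genes. The AKT kinase genes were the furthest from 0, and both were high in a single wild type library. For all 8 genes the difference between the genotype means was smaller than the larger of the gaps between libraries of one genotype, as it was for 72.2% of all tested genes. CPM ranges of the genotypes did not overlap for 1 of the 8, daf-18, against 43.2% of all tested genes (22.1% higher and 21.1% lower in the mutant).

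**Figure D1:**
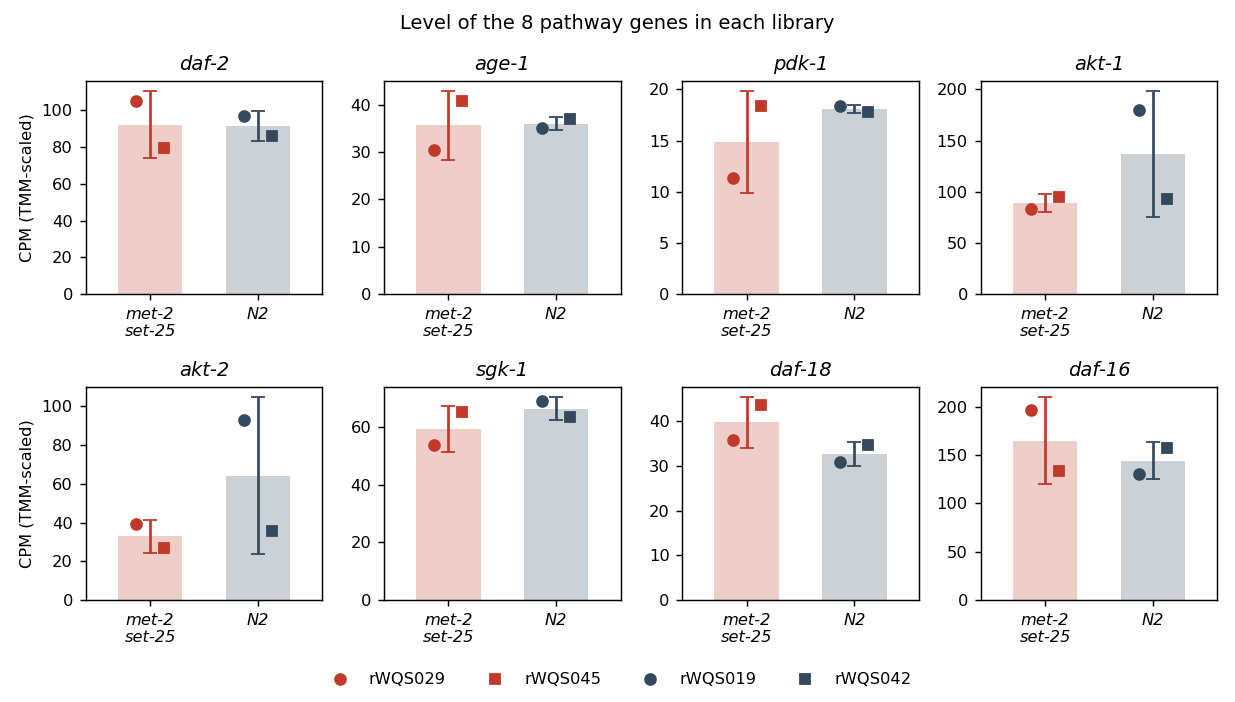
Level of each pathway gene in CPM (vertical axis, from 0, its own scale in each panel). Points are single libraries, bars are genotype means and error bars are the SD of 2 libraries. Only daf-18 has every mutant point above every wild type point, and for akt-1 and akt-2 the wild type library rWQS019 stands far above the other points.

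daf-2 encodes the worm's homolog of the insulin and insulin-like growth factor receptors (chromosome III, 2994514 to 3040846 in WBcel235). It was at 105 and 79.5 CPM in met-2 set-25, against 97.2 and 85.9 CPM in wild type. The mutant libraries lay on either side of the wild type pair, so the groups overlapped fully. The means were 92.3 ± 18.1 CPM in met-2 set-25 and 91.6 ± 8.0 CPM in wild type (SD, n = 2 libraries each). This is a log2 fold change of 0.01 (edgeR adjusted p = 0.99), with a 95% interval from -0.64 to 0.64 in limma voom.

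age-1 encodes the catalytic subunit of phosphoinositide 3-kinase (chromosome II, 11519328 to 11527054). It was at 30.5 and 40.7 CPM in met-2 set-25, against 35 and 37 CPM in wild type. Again the mutant values enclosed those of wild type, and the wild type libraries were 1.06-fold apart. edgeR gave a log2 fold change of -0.02 (edgeR adjusted p = 0.988), with a limma voom interval from -0.69 to 0.63. age-1 shares 192 exon bases with B0334.10 on the opposite strand, a gene with 5 to 8 counts a library, which is small beside the 806 to 2113 counts of age-1.

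daf-18 encodes the lipid phosphatase that opposes AGE-1 (chromosome IV, 420011 to 425177). It was at 35.7 and 43.6 CPM in met-2 set-25, against 30.7 and 34.5 CPM in wild type. Both mutant libraries were above both wild type libraries, but the lower mutant library and the higher wild type library were close together. The means were 39.6 ± 5.61 CPM in met-2 set-25 and 32.6 ± 2.67 CPM in wild type (SD, n = 2 libraries each), 1.21-fold higher in the mutant. The log2 fold change of 0.28 did not pass (edgeR adjusted p = 0.726, DESeq2 adjusted p = 0.94), and its limma voom interval ran from -0.35 to 0.89.

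The balance of the antagonists was also read within each library, where no scaling enters. Counts of daf-18 were 1.17 and 1.07 times those of age-1 in met-2 set-25, against 0.877 and 0.933 times in wild type. daf-18 was thus the more counted gene of the pair in both mutant libraries and the less counted one in both wild type libraries. Per kilobase of exon the ratio was 1.38 and 1.26 in met-2 set-25, against 1.03 and 1.10 in wild type. By length, daf-18 was therefore above age-1 in every library, and the order of the pair did not switch. The log2 ratio was 0.31 higher in met-2 set-25, with a two-sided exact permutation p of 0.333, the smallest value that 2 libraries against 2 can give. In whole larvae, fewer cells of a type and less RNA per cell cannot be told apart. Between genotypes, germline markers moved in the same direction as the daf-18 to age-1 ratio. The summed CPM of the 16 listed germline markers was 1324 and 2593 in met-2 set-25, against 623 and 672 in wild type, and 15 of the 16 did not overlap between genotypes and were higher in the mutant, against 22.1% of all tested genes. DESeq2 called 8 of the 16, all higher, against 2.49% of all genes. Between the mutant libraries the germline sum was higher in rWQS045 and the ratio was lower, whereas in wild type both were higher in rWQS042. The part of the germline markers in the ratio was not tested.

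pdk-1 encodes the kinase that phosphorylates AKT and SGK kinases (chromosome X, 1321344 to 1327986). It was the least abundant of the 8, at 11.3 and 18.4 CPM in met-2 set-25, against 18.3 and 17.8 CPM in wild type. One mutant library, rWQS029, was low, and rWQS045 matched the wild type pair, which was only 1.03-fold apart. Its log2 fold change was -0.28 (edgeR adjusted p = 0.802, limma voom interval from -1.16 to 0.54). Without rWQS029 the value was 0.02, and without rWQS045 it was -0.67, so the lower mean rested on 1 library. pdk-1 shares 15 exon bases with F21E9.2 on the opposite strand, which had 157 to 369 counts a library, against 422 to 1016 for pdk-1.

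akt-1 (chromosome V, 10248905 to 10252845) encodes one of the AKT kinases that restrain DAF-16. It was at 83.0 and 95.1 CPM in met-2 set-25, against 180.2 and 93.3 CPM in wild type. The wild type library rWQS019 was 1.93-fold above rWQS042, whereas rWQS042 lay between the mutant libraries. The means were 89.0 ± 8.56 CPM in met-2 set-25 and 137 ± 61.5 CPM in wild type (SD, n = 2 libraries each). The log2 fold change was -0.62 (edgeR adjusted p = 0.638, limma voom interval from -1.5 to 0.44) and -0.07 without rWQS019. akt-1 shares 8 exon bases with rop-1 on the opposite strand.

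akt-2 (chromosome X, 14147700 to 14152070), the paralog of akt-1, had the same shape with a wider gap. It was at 39.1 and 27.1 CPM in met-2 set-25, against 92.7 and 35.5 CPM in wild type. rWQS019 was 2.61-fold above rWQS042, which lay within the range of the mutant libraries. The means were 33.1 ± 8.48 CPM in met-2 set-25 and 64.1 ± 40.4 CPM in wild type (SD, n = 2 libraries each). The log2 fold change of -0.95 did not pass (edgeR adjusted p = 0.61, DESeq2 adjusted p = 0.648), its limma voom interval ran from -2.15 to 0.58, and without rWQS019 it was -0.11. The DESeq2 standard error of its own log2 fold change was 0.575, the largest of the 8.

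The distance between the wild type libraries was large for this pair beside other genes as well. The absolute log2 difference between rWQS042 and rWQS019 was smaller than that of akt-1 for 89.4% of tested genes and smaller than that of akt-2 for 95.4%. For the other 6 pathway genes this share was between 8.86% for pdk-1 and 47.5% for daf-16. In met-2 set-25 the shares were 23.3% for akt-1 and 56.0% for akt-2, so the pair did not stand apart between the mutant libraries. Summed neuronal markers were at 611 and 490 CPM in met-2 set-25, against 820 and 700 CPM in wild type. Summed intestinal markers were at 7401 and 5443 CPM in met-2 set-25, against 4591 and 5256 CPM in wild type, with the neuronal list highest and the intestinal list lowest in rWQS019. The 9 intestinal genes went both ways between genotypes, 5 with log2 fold changes above 0 and 4 below, from -1.48 to 2.22. Their part in the akt values was not tested.

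**Figure D2:**
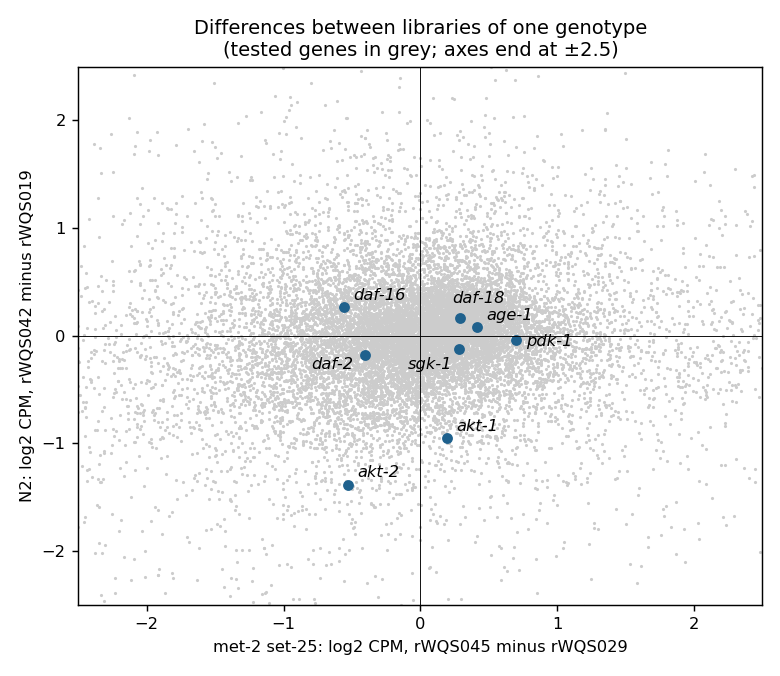
Log2 CPM difference between the libraries of met-2 set-25 (horizontal axis) and of wild type (vertical axis) for the 15978 tested genes in grey, with the 8 pathway genes in blue. Both axes end at 2.5 log2 units, beyond which 809 genes lie. akt-1 and akt-2 sit well below 0 on the vertical axis, lower in rWQS042 than in rWQS019, and the other 6 lie near 0 on it.

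The AKT genes were also compared with each other inside each library. akt-1 had 2.12 and 3.51 times the counts of akt-2 in met-2 set-25, against 1.94 and 2.62 times in wild type. akt-1 was the more counted paralog in all 4 libraries, also per kilobase of exon, where the ratio was 2.22 and 3.67 in met-2 set-25, against 2.03 and 2.74 in wild type. The log2 ratio differed by 0.27 between genotypes, with a two-sided exact permutation p of 0.667, in a design that cannot give less than 0.333, and the ranges overlapped.

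sgk-1 encodes the serum- and glucocorticoid-inducible kinase homolog (chromosome X, 16254842 to 16262122). It was at 53.5 and 64.9 CPM in met-2 set-25, against 69.0 and 63.3 CPM in wild type. The groups overlapped, and unlike the AKT genes sgk-1 was close in the wild type libraries, 1.09-fold apart. A log2 fold change of -0.16 was fitted (edgeR adjusted p = 0.844), with a limma voom interval from -0.75 to 0.42. In counts, sgk-1 stood at 0.645 and 0.683 of akt-1 in met-2 set-25, against 0.383 and 0.679 in wild type, a ratio looked at after the values of the AKT genes were seen.

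daf-16 encodes the FOXO transcription factor at the end of the pathway (chromosome I, 10750498 to 10776703). It was at 196.5 and 133 CPM in met-2 set-25, against 131 and 158 CPM in wild type. The highest value was in the mutant library rWQS029, and rWQS045 fell inside the wild type range. The means were 165 ± 44.6 CPM in met-2 set-25 and 144 ± 18.9 CPM in wild type (SD, n = 2 libraries each). On the log2 scale the fold change was 0.19 (edgeR adjusted p = 0.847, limma voom interval from -0.56 to 0.90), and it was -0.12 without rWQS029 and 0.44 without rWQS045. daf-16 shares 84 exon bases with the noncoding gene H36N01.5 on the opposite strand, which had 8 to 52 counts a library, against 3010 to 8999 for daf-16.

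The ends of the pathway were set against each other as well. daf-16 had 1.87 and 1.68 times the counts of daf-2 in met-2 set-25, against 1.35 and 1.83 times in wild type. The ranges overlapped, and the log2 ratio differed by 0.17 with a two-sided exact permutation p of 0.667, where 0.333 is again the smallest possible. Centred log2 CPM of the 2 genes were at a Euclidean distance of 0.376 over the 4 libraries, both being highest in rWQS029. Among the 28 pairs of pathway genes the nearest was age-1 with sgk-1, at 0.219, and the furthest was akt-2 with daf-18, at 1.65.

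**Figure D3:**
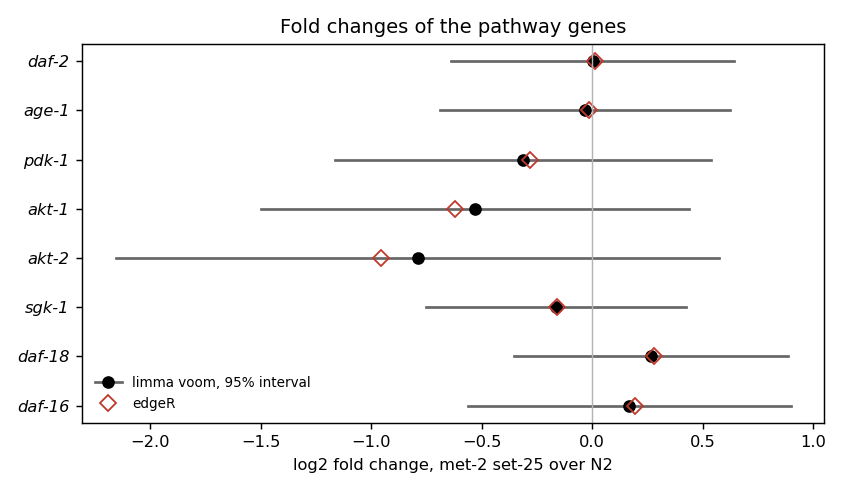
Log2 fold change of each pathway gene, met-2 set-25 over N2 (horizontal axis). Filled circles are limma voom estimates with 95% intervals from 2 libraries per genotype, and open diamonds are edgeR estimates. Every interval spans 0, and those of akt-2 and akt-1 are the widest.

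The intervals show how much these libraries could have missed. For daf-2, age-1, sgk-1 and daf-18 the limma voom interval stayed within 0.89 log2 units of 0 on either side. For akt-2 it reached -2.15, so a fall to well under the wild type level was not detectable at this spread. Counting error was small beside this, since the lowest count of any of the 8 in any library was 422, for pdk-1 in rWQS019.

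Levels were compared between genes per kilobase of exon. In met-2 set-25 the order was daf-16 (44.8 CPM per kb), akt-1 (39.1), sgk-1 (36.2), akt-2 (13.9), daf-18 (11.9), daf-2 (11.1), age-1 (9.07) and pdk-1 (6.13). In wild type it was akt-1 (60.0 CPM per kb), sgk-1 (40.4), daf-16 (39.1), akt-2 (26.9), daf-2 (11), daf-18 (9.79), age-1 (9.17) and pdk-1 (7.46). The transcription factor and the kinases akt-1 and sgk-1 thus formed the abundant end, and the receptor, the lipid enzymes and pdk-1 the scarce end, in both genotypes. Neighbours in the order whose library ranges did not overlap were sgk-1 and akt-2, and age-1 and pdk-1, in met-2 set-25, and akt-2 and daf-2, and age-1 and pdk-1, in wild type. All other neighbours overlapped and were not ordered beyond their spread. In wild type, akt-1 was above 86.0% of tested genes per kilobase and pdk-1 above 43.1%. Exon lengths were those of the WBcel235 annotation, not of the annotation used for counting.

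The 8 genes were spread over all 6 chromosomes, with pdk-1, akt-2 and sgk-1 on X. H3K9 methylation lies mostly on the distal arms of autosomes. Of the 5 autosomal members, daf-2, age-1 and daf-18 had midpoints outside the middle 50% of their chromosome and akt-1 and daf-16 inside it. daf-18 lay 2.42% of the way along chromosome IV and age-1, at 75.4% of chromosome II, lay just past the limit. The log2 fold changes of the arm genes were 0.01, -0.02 and 0.28, against -0.62 and 0.19 for akt-1 and daf-16, too few genes for a comparison.

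Genes with the most similar pattern were taken by the distance between centred log2 CPM values over 4 libraries, as a description. Nearest to daf-2 were F25H5.10 (0.00862), Y39G10AR.30 (0.0385) and nhr-182 (0.0428), and nearest to daf-16 were nlp-36 (0.0223), inx-6 (0.0601) and plr-1 (0.0643). With 4 values many genes come close: 39 genes lay within 0.1 of daf-2 and 11 within 0.1 of daf-16. The AKT genes had few such neighbours, 1 gene for akt-1 and 0 for akt-2. The third nearest to akt-1 was acs-22, of a fatty acid transport family, at 102 and 131 CPM in met-2 set-25, against 223 and 117 CPM in wild type, which was looked at after the akt-1 values were seen.

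Upstream of the receptor, 27 of 39 matched insulin-like peptide genes were abundant enough to test. Of these 0 passed in edgeR or DESeq2, and the median log2 fold change was 0.02. An unadjusted edgeR p under 0.05 was given to 2, both lower in the mutant, against 3.87% of all tested genes lower at that limit. ins-1 was at 4.61 and 3.79 CPM in met-2 set-25, against 10.1 and 7.51 CPM in wild type (log2 fold change -1.06, edgeR adjusted p = 0.423). ins-5 was at 5.4 and 2.78 CPM in met-2 set-25, against 8.74 and 10.2 CPM in wild type (log2 fold change -1.21, edgeR adjusted p = 0.472). The DESeq2 log2 fold change of ins-5 was -1.74 without rWQS029 and -0.82 without rWQS045. ins-29 and ins-10 had log2 fold changes of -1.08 and -1.0 (edgeR adjusted p = 0.54 and 0.581). All 4, named for the smallest edgeR p of the list, had mutant values below both wild type values, in low counts for ins-29 and ins-10 (19 to 102 a library). Of the 27 tested, 10 were lower and 4 higher in the mutant without overlap, against 21.1% and 22.1% of all tested genes. ins-10 shares 74 exon bases with the more counted vps-39 on the opposite strand. Without rWQS029 the median of the list was -0.73.

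Among 35 tested regulators of the pathway, 0 passed in edgeR or DESeq2. At an unadjusted edgeR p under 0.05, 3 were lower and 0 were higher, against 3.87% and 6.2% of all tested genes. CPM ranges of the genotypes did not overlap for 10 that were higher and 14 that were lower, against 22.1% and 21.1% of all tested genes. The median of the list was 0.06 on the log2 scale. ist-1, the insulin receptor substrate homolog, was at 23.3 and 20.7 CPM in met-2 set-25, against 38.3 and 31.1 CPM in wild type (log2 fold change -0.66, edgeR adjusted p = 0.485). ogt-1, the O-GlcNAc transferase, was at 130.5 and 129 CPM in met-2 set-25, against 285 and 173 CPM in wild type (log2 fold change -0.82, edgeR adjusted p = 0.489). Like the AKT genes, ogt-1 was highest in rWQS019, but its mutant libraries stayed below both wild type libraries.

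eak-4, which acts in parallel to AKT-1, was counted 3 and 4 times in met-2 set-25 and 18 times in each wild type library (log2 fold change -2.63, edgeR adjusted p = 0.351). At so few counts the size of that difference is poorly known. swsn-1, a subunit of the SWI/SNF remodeler, was at 46.5 and 118 CPM in met-2 set-25, against 15.3 and 40.5 CPM in wild type (log2 fold change 1.56, edgeR adjusted p = 0.534), with libraries of each genotype over 2-fold apart. Its log2 fold change was 0.73 without rWQS045, and DESeq2 called it without rWQS029 (log2 fold change 2.1, adjusted p = 0.00153). aap-1, the adaptor subunit that pairs with AGE-1, was named after its values were seen and was at 28.1 and 30.4 CPM in met-2 set-25, against 29.1 and 26.9 CPM in wild type, with overlapping groups. It shares 136 exon bases with Y110A7A.21 on the opposite strand.

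**Figure D4:**
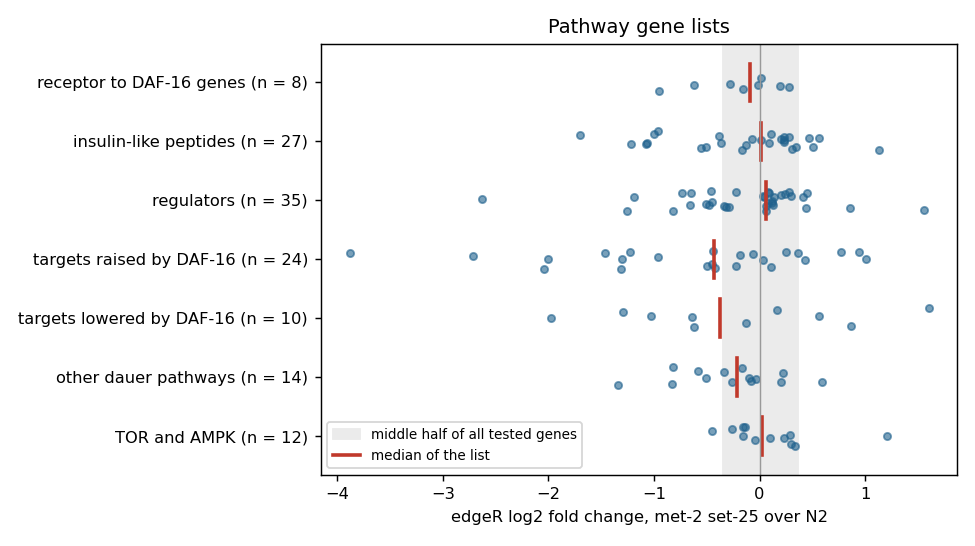
edgeR log2 fold change, met-2 set-25 over N2 (horizontal axis), of each tested gene (point) in the pathway and in 6 related lists, with the median of each list as a red line. The shaded band runs from the lower quartile (-0.35) to the upper quartile (0.37) of all tested genes. The points of each list lie on both sides of 0, and the lowest medians are those of the genes raised (-0.43) and lowered (-0.38) by DAF-16.

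Downstream, genes known to be raised by active DAF-16 were looked at in 24 tested members of 30 matched. They include stress genes and enzymes of the glyoxylate cycle and of trehalose synthesis. 0 passed in edgeR or DESeq2, and 1 had an unadjusted edgeR p under 0.05 (lower), against 3.87% of all tested genes lower at that limit. Log2 fold changes were below 0 for 16 of 24, against 7739 of 15978 tested genes, with a median of -0.43 in the list. Without rWQS019 the median was -0.04, without rWQS045 it was -0.05, and without rWQS029 it was -1.17. The median therefore rested on which libraries entered it.

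icl-1, the glyoxylate cycle enzyme, had the lowest unadjusted edgeR p of the list. It was at 700.3 and 536 CPM in met-2 set-25, against 4135 and 840.1 CPM in wild type. All wild type values were above all mutant values, but rWQS019 alone was several-fold above the other libraries. The log2 fold change was -2.01 (edgeR adjusted p = 0.49, DESeq2 adjusted p = 0.131), and -0.45 without rWQS019. With rWQS042 left out, rWQS019 being the only wild type library, the edgeR log2 fold change of icl-1 was -2.74.

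tps-2, a trehalose-6-phosphate synthase gene, was at 109.8 and 106 CPM in met-2 set-25, against 367 and 138 CPM in wild type (log2 fold change -1.23, edgeR adjusted p = 0.516, and -0.36 without rWQS019). tps-2 shares 24 exon bases with arl-3. dod-3 was at 2.86 and 0.336 CPM in met-2 set-25, against 45.0 and 2.31 CPM in wild type (log2 fold change -3.89, edgeR adjusted p = 0.547). For dod-3 this was -0.54 without rWQS019, -6.12 without rWQS029 and -4.81 without rWQS042. The catalase gene ctl-1 was at 1.22 and 0.919 CPM in met-2 set-25, against 2.65 and 1.54 CPM in wild type (log2 fold change -0.96, edgeR adjusted p = 0.579). In all 3 rWQS019 was the highest library.

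The commonly used reporters of DAF-16 activity, named after their values were seen, had no common order across the libraries. sod-3, the mitochondrial superoxide dismutase gene, was at 0.608 and 2.44 CPM in met-2 set-25, against 2.74 and 4.85 CPM in wild type (log2 fold change -1.32, edgeR adjusted p = 0.626). mtl-1, a metallothionein gene, was at 4.0 and 0.269 CPM in met-2 set-25, against 1.57 and 0.595 CPM in wild type (log2 fold change 1.01, edgeR adjusted p = 0.815). hsp-16.2, a small heat shock protein gene with close paralogs, was at 2.41 and 0.381 CPM in met-2 set-25, against 10.5 and 1.07 CPM in wild type (log2 fold change -2.04, edgeR adjusted p = 0.657). hsp-16.2 and mtl-1 were higher in rWQS029 than in rWQS045 and in rWQS019 than in rWQS042, and sod-3 went the other way in both genotypes. sod-3 shares 65 exon bases with C08A9.3 and 24 with lido-1 on the opposite strand.

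Differences between libraries of one genotype were wide in this list. In wild type, 12 of the 24 were over 2-fold higher in rWQS019 than in rWQS042 and 0 were over 2-fold lower, against 5.88% of all tested genes that were over 2-fold higher. In met-2 set-25, 11 of the 24 were over 2-fold higher in rWQS029 than in rWQS045, against 13.6% of all tested genes, and 1, sod-3, was over 2-fold lower. Between the same libraries, rWQS029 and rWQS045, summed hypodermal markers were at 1824 and 7837 CPM and mitochondrial counts made up 1.10% and 0.27% of the total. The hypodermal markers went both ways in log2 CPM, rWQS045 minus rWQS029. dpy-2, dpy-3, dpy-7, dpy-8 and dpy-10 were at 1.23 to 2.17, and elt-1 and elt-3 at -0.76 and -0.66. Together with the germline sums given above, the part of these markers and of mitochondrial counts in the gaps was not tested. The median log2 CPM of the list about each gene's mean was 0.18 and -0.69 in met-2 set-25 (rWQS029 and rWQS045), against 0.60 and -0.26 in wild type (rWQS019 and rWQS042). These counts were made after the values were seen, and no test was applied. daf-16 itself was highest in rWQS029 and lowest in rWQS019, so its level did not follow that of the list across the 4 libraries.

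**Figure D5:**
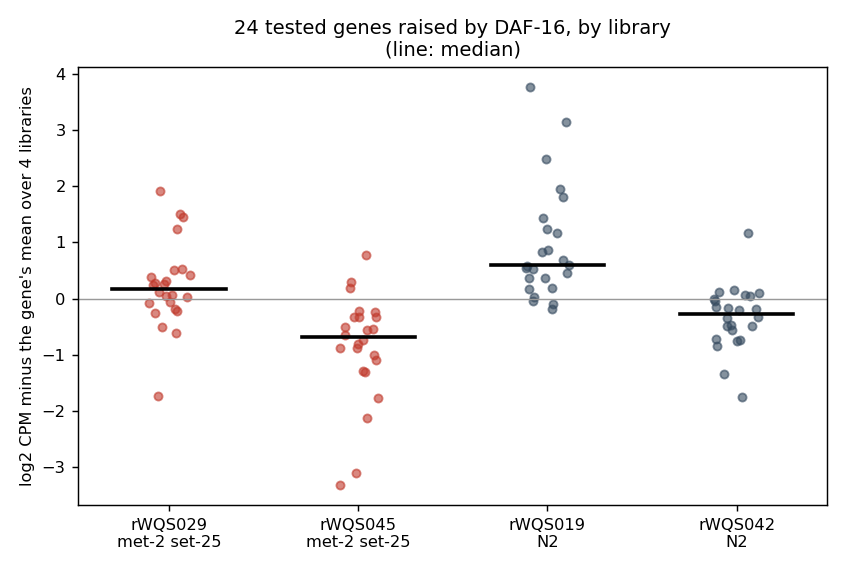
Log2 CPM minus the gene's own mean over the 4 libraries (vertical axis) for the 24 tested genes raised by DAF-16, by library, with medians as lines. The medians are 0.18 and -0.69 in met-2 set-25 and 0.60 and -0.26 in wild type, so each genotype has a higher and a lower library.

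Genes known to be lowered by DAF-16 numbered 10 tested of 14 matched. dod-22, 1 of the 10, fell in DESeq2, against 0.821% of all genes tested there, and 0 rose, against 2.49%. None passed in edgeR, with a median log2 fold change of -0.38. At an unadjusted edgeR p under 0.05, 1 was higher and 1 lower, against 6.2% and 3.87% of all tested genes. CPM ranges did not overlap for 2 that were higher and 4 that were lower, against 22.1% and 21.1%. dod-22 was at 1.44 and 2.04 CPM in met-2 set-25, against 9.04 and 4.75 CPM in wild type (DESeq2 log2 fold change -1.96 ± 0.551 SE, DESeq2 adjusted p = 0.0151, edgeR adjusted p = 0.293). The call was lost without rWQS019 (DESeq2 adjusted p = 1), without rWQS042 (0.191) and without rWQS029 (0.0509). dod-19 went the other way, at 327 and 242 CPM in met-2 set-25, against 144 and 168 CPM in wild type (log2 fold change 0.87, edgeR adjusted p = 0.391). gcy-18, a receptor guanylyl cyclase gene, and dod-20 had log2 fold changes of -1.03 and 1.6 (edgeR adjusted p = 0.527 and 0.552). Counts of dod-20 were low, 7 to 92 a library, and its edgeR value ran from 0.73 without rWQS029 to 2.39 without rWQS042. The list thus held members that were higher and members that were lower in the mutant, 4 and 6 of the 10.

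Signalling systems beside the pathway were read in the same way. Of 14 genes of the TGF-beta, steroid hormone and guanylyl cyclase branches that also control dauer arrest, 0 passed in edgeR or DESeq2. Log2 fold changes were below 0 for 11 of the 14, against 7739 of 15978 tested genes (median of the list -0.22, and 0.02 without rWQS045). daf-7, the TGF-beta ligand made in sensory neurons, was at 13.9 and 21.9 CPM in met-2 set-25, against 53.9 and 36.6 CPM in wild type (log2 fold change -1.34, edgeR adjusted p = 0.333, DESeq2 adjusted p = 0.0915). With each library left out, the edgeR log2 fold change of daf-7 ran from -1.71 (without rWQS045) to -1.04 (without rWQS019). Its groups were well apart, and the neuronal markers given above were lower in the mutant too, 10 of 12 without overlap against 21.1% of all tested genes, a part that was not tested. The Smad gene daf-14 (log2 fold change -0.83), the Sno/Ski homolog gene daf-5 (-0.50) and the guanylyl cyclase gene daf-11 (-0.82) were also below both wild type libraries, and none passed (edgeR adjusted p = 0.478, 0.576 and 0.629). With daf-7 these are the genes named for the smallest edgeR p of the list. Of the 14, only these 4 were lower without overlap and 1 was higher, against 21.1% and 22.1% of all tested genes. daf-14 shares 111 exon bases with F01G10.9 on the opposite strand.

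Of 12 genes of the TOR and AMPK pathways, which meet insulin signalling at the level of nutrients, 0 passed in edgeR or DESeq2, and the median log2 fold change was 0.03. par-4, the LKB1 kinase that activates AMPK, was at 22.6 and 31.8 CPM in met-2 set-25, against 7.39 and 16.06 CPM in wild type (log2 fold change 1.21, edgeR adjusted p = 0.489). aak-2, the AMPK catalytic subunit, was at 75.2 and 78.2 CPM in met-2 set-25, against 125 and 84.4 CPM in wild type (log2 fold change -0.45, edgeR adjusted p = 0.645). rict-1, the TORC2 subunit that acts through SGK-1, was at 52.0 and 57.5 CPM in met-2 set-25, against 43.2 and 45.7 CPM in wild type (log2 fold change 0.30, edgeR adjusted p = 0.68), and ragc-1 had a log2 fold change of 0.29 (edgeR adjusted p = 0.719). These differences were of the size seen among the 8 pathway genes, except for par-4.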

How the data were processed

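The values the authors deposited are unnormalized read counts, a column for each library. Libraries came from a TruSeq RNA kit. Whether strand was kept is not stated, and it was taken as not kept. Reads were aligned to ce10 with STAR and counted over WS235 genes with HTSeq, while featureCounts stands in the submitters' processing notes. Versions and the treatment of shared reads are not given in the sources used here, so overlapping genes and close paralogs are uncertain. Columns carry the genotype but no replicate number and are called by their identifiers. Columns left out numbered 0. Total counts were 22849521 to 56879896 a library, and 3 counts, taken as the limit of a 0, correspond to 0.0527 to 0.131 CPM before TMM scaling, for counting error only.

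Genes were matched by WormBase identifier to Ensembl 115 (WBcel235), where 46449 of 46748 had an entry. Positions and exon lengths are of WBcel235 and none of ce10 were used. edgeR 4.0.16 (R 4.3.3) was fitted with genotype as the only term, filterByExpr, TMM factors (0.917 to 1.08), the quasi-likelihood test and Benjamini-Hochberg adjustment over 15978 genes. DESeq2 1.42.0, the tool of the study's methods, and limma 3.58.1 (voom) were alternatives, beside other scaling factors, other filters and each library left out. The fits were tested on simulated data. Log2 ratios of counts were compared by exact permutation.

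The members and lists were chosen with earlier results of these data known. Genes named beside the members were, from each list, those past edgeR or DESeq2, filled up to 4 by smallest edgeR p. Of the lists, dod-8, dod-11, dod-16, hsp-16.11, hsp-16.49, swsn-8, ins-38 and opt-2 had no match and were not used here.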

Additional observations from a re-analysis of the deposited data

How the results depend on the processing

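No paired analysis was possible because the column names carry no replicate number, and the planned replicate block was therefore not run. No alternative put any of the 8 pathway genes past the threshold, the lowest adjusted p over all of them being 0.125. Of 128 values, 16 alternatives for each gene, 112 kept the direction given in the report and 16 reversed it; akt-1, akt-2 and daf-18 kept theirs in all 16. The number of genes called among all genes was 548 with DESeq2, 1223 in edgeR with no filter and 555 with edgeR's likelihood ratio test, which was chosen after seeing the data, against 0 in edgeR's quasi-likelihood test. With each library left out it ran from 0 to 1433. daf-2 reversed to -0.044 with upper-quartile factors and to -0.013 with a minimum mean of 5 CPM, and age-1 to 0.0049 with no filter. With each library left out, in edgeR or DESeq2, the log2 fold change ran from -0.21 to 0.20 for daf-2, -0.25 to 0.21 for age-1, -0.68 to 0.054 for pdk-1, -0.31 to 0.0032 for sgk-1 and -0.12 to 0.44 for daf-16. The median of the insulin-like peptides was -0.39 with a minimum mean of 5 CPM, and that of the genes lowered by DAF-16 was 0.18 with no filter. Left-out libraries gave medians of -0.091 to 0.16 for the regulators, -0.73 to 0.13 for the insulin-like peptides, -0.43 to 0.0093 for the genes lowered by DAF-16 and -0.078 to 0.20 for the TOR and AMPK genes. The cause of these changes was not tested, beyond fewer libraries entering the fit. Where 1 library of a genotype was left, it was assumed to vary like the other genotype. Each pathway gene had at least 422 counts in every library, so the number of libraries limits its precision more than depth does.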
